A study of Mus musculus with 12 samples.

Results

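The collagen chain genes are the protein-coding mouse genes whose symbol is Col, a number, the letter a and a number, and 44 of the 55573 rows of the count file met that rule. Each encodes 1 chain of the trimeric proteins that make up most of the extracellular matrix. They were followed through 12 RNA-sequencing libraries of the extensor digitorum longus (EDL), a fast muscle of the lower hindlimb. The mice were C57BL/6. There were 3 libraries in each of 4 groups: 1 EDL myofiber alone, 5 myofibers pooled, 20 pooled, and the whole EDL. Every library came from the SMART-Seq HT kit, which amplifies full-length cDNA from very little RNA, and no group carried a treatment or an engineered allele. Per the labels, fibers were lysed in the kit's own buffer and Trizol was used for whole muscle, so that the way of lysis differs between these groups too. How the fibers were dissociated, how many animals gave them, and the age and sex of the animals are not given in the sources used here. The p-values below therefore measure the spread between these libraries, which may be technical.

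Collagens differ by the structure they build. Fibrillar chains (types I, II, III, V, XI, XXIV and XXVII) assemble into the fibers that carry tension, type IV chains form the sheet of the basement membrane that wraps each muscle fiber and capillary, and type VI chains form beaded filaments between that sheet and the interstitium. Fibril-associated chains decorate fibrils, multiplexins sit in basement membranes, and transmembrane collagens stay on the cell surface. In muscle most interstitial collagen is known to come from fibroblasts and most vascular basement membrane from endothelial cells and pericytes, while a muscle fiber is a single large multinucleate cell with a basement membrane of its own. By these classes the 44 genes were 11 fibrillar, 6 type IV, 6 type VI, 9 fibril-associated, 2 multiplexin, 3 short-chain network, 4 transmembrane and 3 other chains.

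Depth ran from 4702823 to 27787120 counted reads per library. Levels are counts-per-million values (CPM), with the library total scaled by the trimmed-mean (TMM) factor. That factor was 4.057 in 20-fiber pool 2, the shallowest library, and between 0.5163 and 1.54 in the others. Genes of the olfactory, vomeronasal and taste receptors, which muscle is not known to use, served as a measure of background. Between 2.32% and 26.6% of the 1510 such genes had a read in the single fibers, 5-fiber pool 3 and the whole muscle libraries, but 58.1% and 68.7% in 5-fiber pools 1 and 2, and 78.6%, 97.3% and 95.4% in the 20-fiber pools. A collagen gene is said below to lie within the background density of a group when its reads per kilobase of exon did not exceed the 99th percentile over the receptor genes in that group. That held for 23 collagen genes in pools of 20, 16 in pools of 5, 17 in single fibers and 5 in whole muscle. The identity of the fibers was checked on 10 muscle fiber markers (Acta1, Ckm, Myh4 and others), none of which was called different by edgeR in the mean of the 3 fiber groups against whole muscle. Of the 10, 5 were called higher in single fibers alone, and 1 was called lower in pools of 20. Their summed level was 57300 to 350100 CPM in the fiber libraries, except for 11740 CPM in 20-fiber pool 2, and 86600 to 123000 CPM in whole muscle.

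Collagen RNA was a small part of the fiber libraries and a larger part of whole muscle. The summed level of the 44 genes was 332, 53.6 and 92.0 CPM in the single fibers, 899, 946 and 139.6 CPM in the pools of 5, 322, 267 and 899 CPM in the pools of 20, and 3376, 3571 and 4051 CPM in whole muscle. With the mean receptor density subtracted from each gene the pools of 20 stood at 261, 128.2 and 816 CPM, the other fiber libraries at 52.8 to 899 CPM and whole muscle at 3375 to 4050 CPM. Every fiber library was below every whole muscle library, and the fiber libraries differed among themselves by more than the whole muscle libraries did. The mean was 439 ± 370 CPM (SD, n = 9) against 3666 ± 347 CPM (SD, n = 3), 8.35-fold less, with p = 0.00909 in an exact two-sided permutation test, the smallest that 9 against 3 libraries can give. As raw shares of all counted reads, collagens took 0.00291% (95% Clopper-Pearson interval 0.00271 to 0.00312) in single fiber 2, the lowest, and 0.122% (0.12 to 0.124) in 20-fiber pool 3, the highest fiber library, against 0.456% to 0.52% in whole muscle. These intervals cover counting error only. In bulk libraries of this kind, fewer cells of a type and less RNA per cell cannot be told apart.

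**Figure D1:**
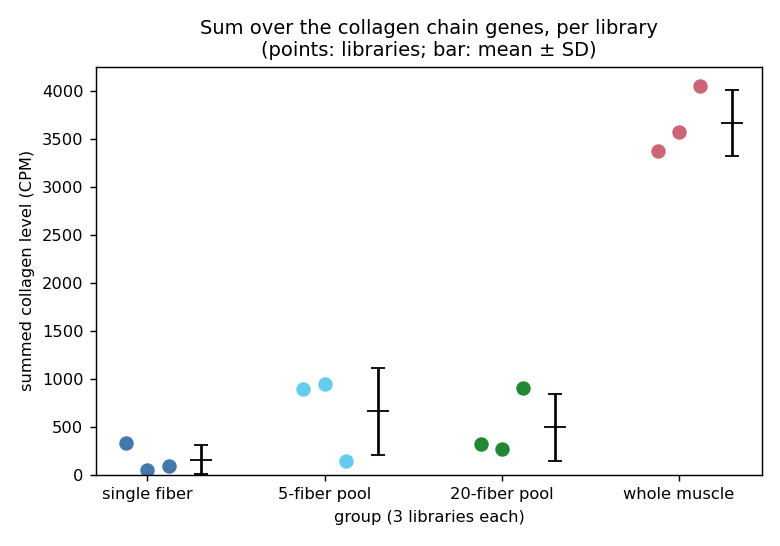
Summed level of the 44 collagen chain genes in CPM (vertical axis, from 0) for the 4 groups of 3 libraries (horizontal axis); points are libraries and the bar is the mean ± SD of the group. The fiber libraries lie between 53.6 and 946 CPM and the whole muscle libraries between 3376 and 4051 CPM.

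In isolated fibers (the mean of the 3 fiber groups) against whole muscle, 18 of the 44 collagen genes fell and 4 rose, by edgeR's quasi-likelihood test at an adjusted p under 0.05. Of all 22110 genes tested, 7.78% were called lower and 7.46% higher, or 5.14% and 9.58% with upper-quartile in place of TMM factors. With those factors, or with RLE factors, 12 of the collagen genes were called lower, and the calls of Col4a5, Col6a6, Col8a1, Col11a1, Col12a1 and Col16a1 were lost. The median log2 fold change was -0.49 over the collagen genes and 0.40 over all genes, the latter 0.69 with upper-quartile factors. The direction of each of the 22 called collagen genes was the same under every alternative that gave it an adjusted p, 20 alternatives for 19 of them and 19 for Col3a1, Col6a3 and Col6a4. By class, 7 of 11 fibrillar, 4 of 6 type VI, 2 of 6 type IV, 3 of 9 fibril-associated, 1 of 2 multiplexin and 1 of 3 short-chain genes fell. The 4 that rose were the fibril-associated Col22a1 and Col9a1, the fibrillar Col24a1 and the type VI chain Col6a4. No transmembrane gene and none of the 3 other chains passed the test in either direction.

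**Figure D2:**
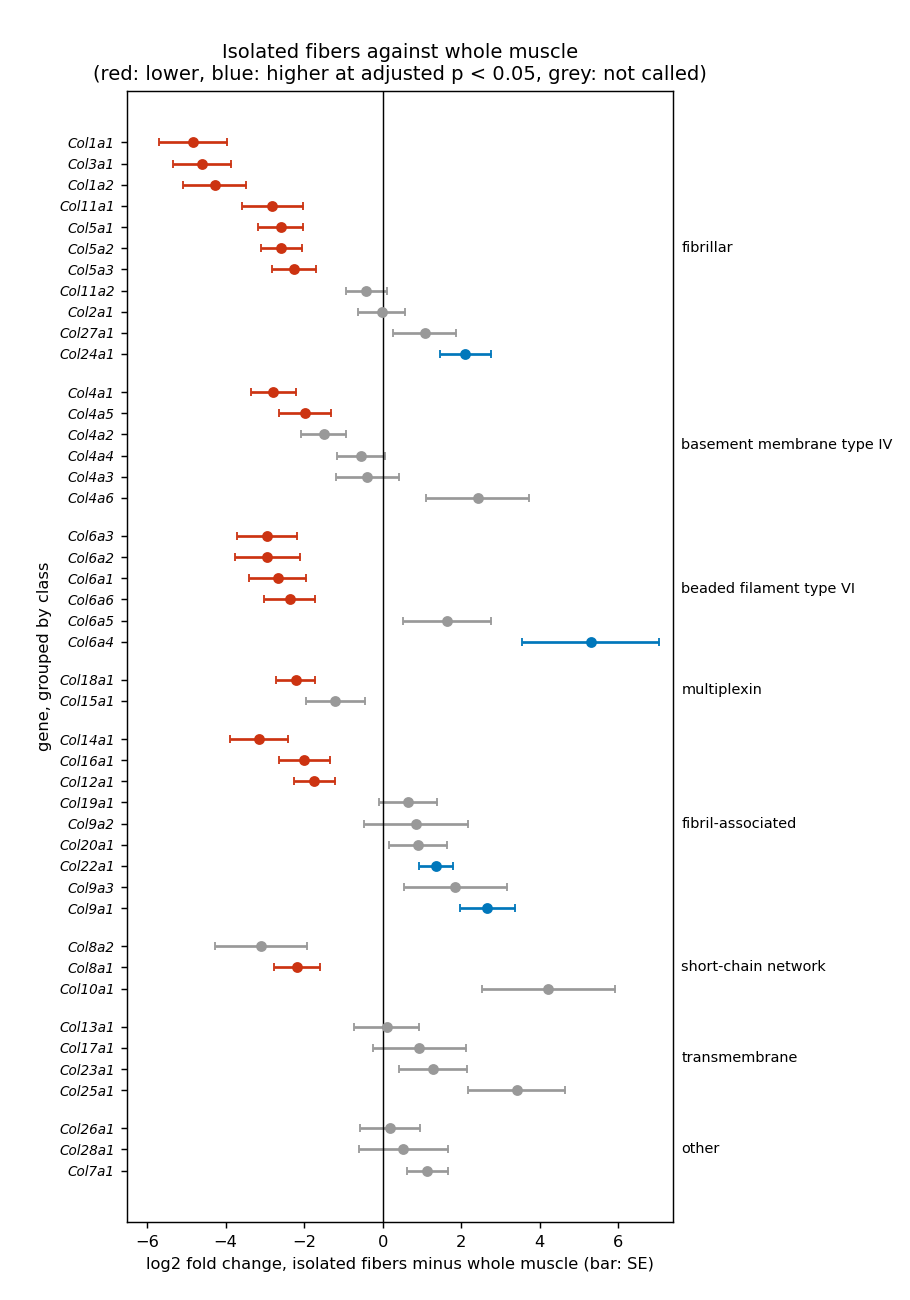
Log2 fold change of each collagen chain gene in isolated fibers minus whole muscle (horizontal axis, with its SE), by class (vertical axis); red genes were called lower, blue genes higher, and grey genes were not called. The values run from -4.83 for Col1a1 to 5.30 for Col6a4.

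Promoters are shown for 2 chains that fell and 2 that rose in isolated fibers against whole muscle. Whether the genes of each direction vary together was not tested. RefSeq's table for GRCm38.p6 held a window for 35 of the 44 genes, and the 250 bases before the start are printed 5′ to 3′ with matches to the motifs searched in capitals. The motifs were the CCAAT box (CCAAT), the TATA box (TATAAA) and the GC box (GGGCGG), searched on both strands, so that a GC box on the other strand reads CCGCCC.
Col3a1 (chr1:45311288-45311537, plus strand): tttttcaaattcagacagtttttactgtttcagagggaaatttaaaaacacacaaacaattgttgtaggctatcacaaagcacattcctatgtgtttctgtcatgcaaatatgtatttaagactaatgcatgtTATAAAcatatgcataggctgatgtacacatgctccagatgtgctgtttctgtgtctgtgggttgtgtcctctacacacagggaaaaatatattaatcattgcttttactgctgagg
Col5a1 (chr2:27886175-27886424, plus strand): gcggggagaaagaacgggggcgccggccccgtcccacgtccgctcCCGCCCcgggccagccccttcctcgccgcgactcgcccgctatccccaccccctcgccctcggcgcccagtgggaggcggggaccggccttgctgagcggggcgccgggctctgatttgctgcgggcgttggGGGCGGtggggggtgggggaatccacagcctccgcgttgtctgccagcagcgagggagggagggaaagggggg
Col9a1 (chr1:24177360-24177609, plus strand): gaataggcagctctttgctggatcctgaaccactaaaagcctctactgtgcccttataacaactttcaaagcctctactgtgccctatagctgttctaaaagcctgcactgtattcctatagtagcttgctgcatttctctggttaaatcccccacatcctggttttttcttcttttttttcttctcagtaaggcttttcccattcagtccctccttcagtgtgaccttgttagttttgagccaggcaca
Col24a1 (chr3:145292222-145292471, plus strand): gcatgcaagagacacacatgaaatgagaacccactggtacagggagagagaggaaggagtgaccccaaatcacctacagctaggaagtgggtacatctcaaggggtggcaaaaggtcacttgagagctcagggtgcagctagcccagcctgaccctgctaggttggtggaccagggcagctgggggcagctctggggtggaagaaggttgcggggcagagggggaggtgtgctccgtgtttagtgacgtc
The Col3a1 window held TATAAA starting 117 bases before the start, and that of Col5a1 held GGGCGG at 73 bases and its reverse complement at 205 bases. Neither of the windows of Col9a1 and Col24a1 shown held any of the motifs, while another RefSeq window of Col9a1, not shown, held CCAAT 18 bases before its start. Over the 35 genes, CCAAT was found in 37.1%, TATAAA in 14.3% and GGGCGG in 60.0%, against 37.5%, 14.3% and 35.4% of the 27025 genes of the table, and 39.2%, 13.3% and 47.5% of its protein-coding genes. These are matches of letters and not sites of binding.

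The fibrillar chains held the largest falls. Col1a1 (ENSMUSG00000001506, chromosome 11, 94936224 to 94953042, plus strand) and Col1a2 (ENSMUSG00000029661, chromosome 6, 4504814 to 4541544, plus strand) encode the chains of type I collagen, the main collagen of tendon and of the connective tissue around muscle. Col1a1 was at 18.1, 0.332 and 0.360 CPM in single fibers, 85.6, 43.8 and 2.78 CPM in pools of 5, 12.2, 4.25 and 50.4 CPM in pools of 20, and 462, 535 and 700.2 CPM in whole muscle. Its groups of fibers and whole muscle did not overlap, and its log2 fold change was -4.83 (SE 0.87, adjusted p = 0.00142, edgeR). Col1a2 was at 33.2, 1.13 and 1.17 CPM in single fibers, 105.8, 72.5 and 6.09 CPM in pools of 5, 14.3, 11.0 and 80.7 CPM in pools of 20, and 558, 575 and 743 CPM in whole muscle. It fell by 4.27 on the log2 scale (SE 0.80, adjusted p = 0.00189, edgeR). Both chains were high in the same fiber libraries, single fiber 1, 5-fiber pools 1 and 2 and 20-fiber pool 3, and low in single fibers 2 and 3.

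Col3a1, the chain of type III collagen of the fine reticular fibers, was the most abundant collagen gene of whole muscle per kilobase of its principal transcript, at 254 CPM per kilobase. It was at 81.9, 4.44 and 10.1 CPM in single fibers, 65.7, 133.6 and 21.5 CPM in pools of 5, 31.3, 10.6 and 157 CPM in pools of 20, and 1389, 1414 and 1442 CPM in whole muscle. The whole muscle libraries differed by little and the highest fiber library was far below them. The fitted fall was 24.1-fold (log2 fold change -4.59, SE 0.74, adjusted p = 5.08e-04, edgeR).

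Type V chains, which start the assembly of type I and III fibrils and limit their width, fell by smaller factors than types I and III, a difference that was not tested. Col5a1 was at 21.2, 1.19 and 11.6 CPM in single fibers, 22.1, 36.2 and 4.40 CPM in pools of 5, 12.6, 8.12 and 28.9 CPM in pools of 20, and 92.7, 101.5 and 123 CPM in whole muscle (log2 fold change -2.60, SE 0.57, edgeR adjusted p = 0.00571). Col5a2 was at 17.6, 2.12 and 2.79 CPM in single fibers, 19.7, 23.8 and 4.80 CPM in pools of 5, 10.2, 6.34 and 23.3 CPM in pools of 20, and 72.1, 74.3 and 84.8 CPM in whole muscle (-2.58, SE 0.52, adjusted p = 0.00333). Col5a3 was at 8.86, 0.796 and 5.84 CPM in single fibers, 23.1, 38.0 and 4.60 CPM in pools of 5, 7.21, 7.23 and 34.6 CPM in pools of 20, and 55.1, 66.2 and 74.2 CPM in whole muscle (-2.26, SE 0.56, adjusted p = 0.0136). Fibers and whole muscle did not overlap in any of the 3 type V genes, and single fiber 2 was the lowest library in each.

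The rarer fibrillar chains divided. Col11a1, a type XI chain that joins cartilage and early tendon fibrils, fell by 2.81 on the log2 scale (SE 0.78, adjusted p = 0.0237, edgeR), with 2 reads in the 3 single fibers together against 433 in whole muscle, a ratio of 127-fold (95% counting interval 35.1 to 1060). Its 20-fiber libraries reached 6.18 CPM and overlapped the whole muscle range of 4.82 to 9.15 CPM. Its 5-fiber libraries lay below that range, at 0 to 3.87 CPM. In the pools of either size it lay within the background density. Col24a1 (ENSMUSG00000028197, chromosome 3, 145292472 to 145552011, plus strand), a fibrillar chain known from bone, rose by 2.10 (SE 0.65, adjusted p = 0.0385, edgeR). It was at 4.94, 2.39 and 1.08 CPM in single fibers, 20.5, 7.58 and 2.23 CPM in pools of 5, 23.9, 6.81 and 10.6 CPM in pools of 20, and 0.964, 1.98 and 2.66 CPM in whole muscle. Single fibers overlapped whole muscle while every pool of 20 was above it. Col11a2 (-0.41), Col27a1 (1.07) and the cartilage chain Col2a1 (-0.02) were not called, with adjusted p of 0.654, 0.394 and 1.

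Type VI chains are known in muscle because variants of Col6a1, Col6a2 and Col6a3 cause the Ullrich and Bethlem muscle diseases, and the protein lies next to the fiber's basement membrane. Col6a1 was at 30.3, 0.663 and 3.51 CPM in single fibers, 31.7, 46.2 and 4.60 CPM in pools of 5, 6.20, 5.29 and 48.2 CPM in pools of 20, and 113, 139 and 135 CPM in whole muscle. Col6a2 was at 14.6, 0.398 and 0 CPM in single fibers, 29.1, 32.2 and 2.50 CPM in pools of 5, 6.65, 7.97 and 37.1 CPM in pools of 20, and 89.9, 99.8 and 119.8 CPM in whole muscle. Col6a3 was at 7.67, 0.0663 and 0 CPM in single fibers, 33.0, 31.9 and 5.82 CPM in pools of 5, 5.18, 9.44 and 29.0 CPM in pools of 20, and 76.4, 80.8 and 88.2 CPM in whole muscle. Like the type I chains, the 3 were highest among fibers in 5-fiber pools 1 and 2 and 20-fiber pool 3, with single fiber 2 the lowest for Col6a1 and no read of Col6a2 and Col6a3 in single fiber 3. They fell by 2.67 (SE 0.73, adjusted p = 0.0222), 2.93 (SE 0.82, adjusted p = 0.0244) and 2.94 (SE 0.77, adjusted p = 0.0174) on the log2 scale in edgeR's test. Of the related chains that can take the place of Col6a3, Col6a6 fell by 2.37 (SE 0.66, edgeR adjusted p = 0.0237), with 2 reads in single fibers against 429 in whole muscle, 126-fold less (34.7 to 1050). It was not called in pools of 5 (-0.32, adjusted p = 0.848) or pools of 20 (0.12, adjusted p = 0.863), which overlapped whole muscle. With the mean receptor density subtracted, Col6a6 was at 0.502, 0.797 and 3.13 CPM in pools of 20 and 4.23 to 7.80 CPM in whole muscle. In pools of 5 it was then at 6.71, 5.24 and 0.322 CPM. Col6a4 rose by 5.30 (SE 1.74, edgeR adjusted p = 0.0465) on 1 whole muscle read against 215 reads in fibers, a ratio of 117-fold (20.7 to 4630). Col6a4 lay within the background density in every group, and 175 of its 215 reads came from the pools of 20. Col6a5 was not called (1.63, adjusted p = 0.339).

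Of the type IV chains, Col4a1 (ENSMUSG00000031502, chromosome 8, 11198423 to 11312826, minus strand) and Col4a2 (ENSMUSG00000031503, chromosome 8, 11312805 to 11449287, plus strand) form the common basement membrane trimer and are transcribed away from each other from 1 shared promoter region. Their annotated ends overlap by 22 bases, and the counting was not stated to use strand. Col4a1 was at 6.30, 3.71 and 4.50 CPM in single fibers, 159, 189 and 22.5 CPM in pools of 5, 27.3, 9.49 and 134 CPM in pools of 20, and 230.2, 236 and 262 CPM in whole muscle. Col4a2 was at 19.0, 7.03 and 6.56 CPM in single fibers, 150.4, 101 and 18.9 CPM in pools of 5, 21.4, 8.07 and 98.8 CPM in pools of 20, and 94.7, 105.6 and 121 CPM in whole muscle. Col4a1 was below whole muscle in every fiber library and fell by 2.78 (SE 0.57, adjusted p = 0.00357, edgeR). Col4a2 overlapped whole muscle, since 5-fiber pools 1 and 2 and 20-fiber pool 3 held as much of it, and it was not called (-1.50, SE 0.57, adjusted p = 0.0731).

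The balance of the pair was compared as well, a comparison chosen after its values were seen, together with 4 other pairs of partner chains. Reads of Col4a1 per read of Col4a2 were 0.333, 0.531 and 0.687 in single fibers, 1.05, 1.86 and 1.19 in pools of 5, 1.27, 1.17 and 1.36 in pools of 20, and 2.43, 2.24 and 2.16 in whole muscle. All 9 fiber libraries lay below all whole muscle libraries, and the single fibers lay below the pools. The log2 ratio was lower by 1.27 in fibers (exact permutation p = 0.00909, adjusted over the 5 pairs 0.0455). Col1a1 per Col1a2 was also lower in fibers, at 0.314 to 0.851 against 0.827 to 0.943 (log2 difference -0.80, exact permutation p = 0.0182, adjusted 0.0455), with an overlap of the groups. Its lowest ratios, in single fibers 2 and 3, rest on 5 and 4 reads of Col1a1 against 17 and 13 of Col1a2. Ratios of Col5a1 to Col5a2, Col6a1 to Col6a2 and Col6a3 to Col6a1 did not pass (adjusted exact permutation p = 0.83, 0.83 and 0.845). Reads of these chains in single fibers 2 and 3 are few too, at 0 to 39 except for 129 of Col5a1 in single fiber 3.

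The other type IV chains, which form the specialised networks of kidney and other sites, were scarce. Col4a5 fell by 1.97 (SE 0.66, adjusted p = 0.0495, edgeR), from 6.34 ± 1.96 CPM (SD, n = 3) in whole muscle to 1.67 ± 1.38 CPM (SD, n = 9) in fibers, and was called under 9 of 20 alternatives, with adjusted p from 5.33e-05 to 0.181. Col4a3 (-0.39), Col4a4 (-0.56) and Col4a6 (2.42) were not called, with adjusted p of 0.839, 0.589 and 0.213. The multiplexins, precursors of the endostatin-like fragments of vascular basement membranes, were split as the type IV pair was. Col18a1 fell by 2.22 (SE 0.50, adjusted p = 0.00749, edgeR), from 14.6 ± 3.57 CPM (SD, n = 3) to 3.81 ± 2.96 CPM (SD, n = 9). Col15a1 was not called (-1.21, SE 0.74, adjusted p = 0.278). It stood at 27.0, 43.6 and 30.7 CPM in 5-fiber pools 1 and 2 and 20-fiber pool 3, above the whole muscle range of 17.6 to 21.7 CPM, and at 0 to 5.97 CPM in the other 6 fiber libraries.

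**Figure D3:**
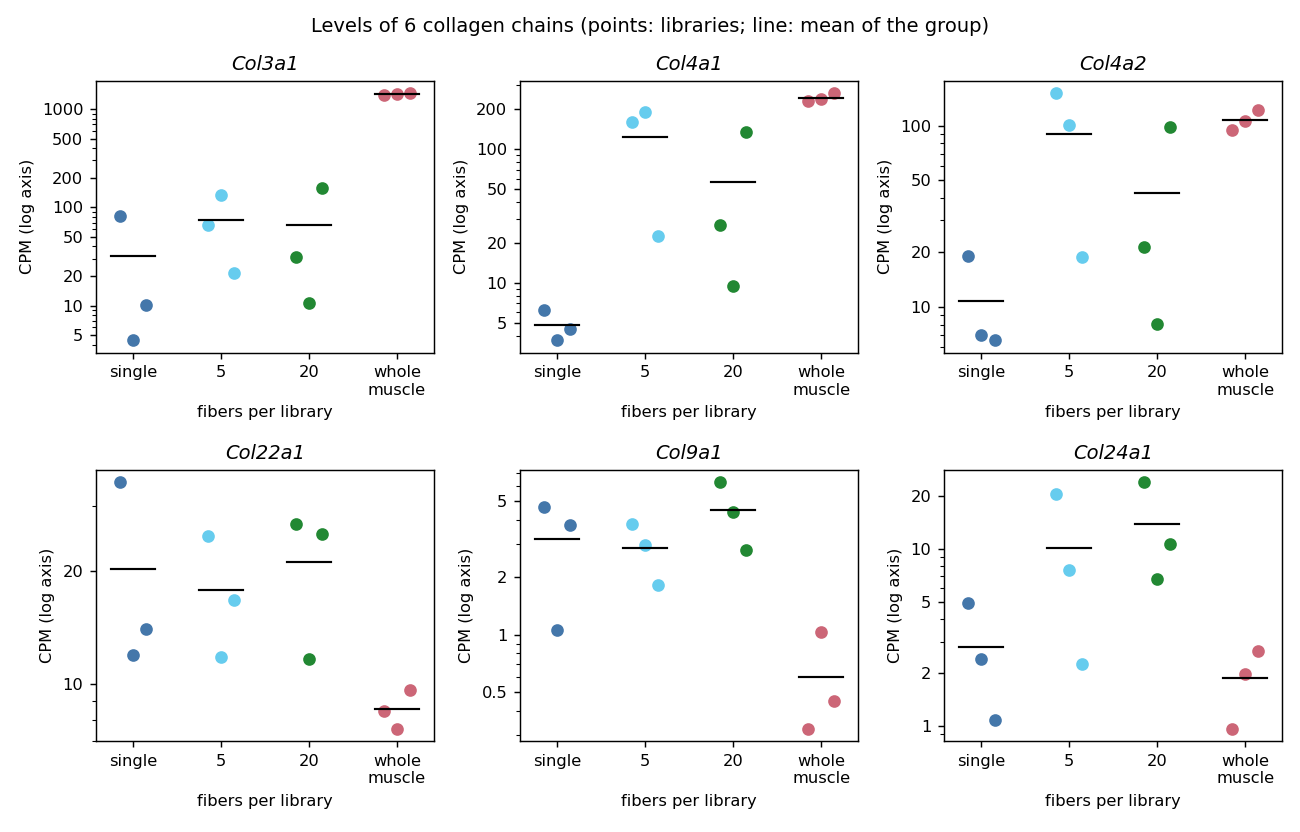
CPM on log axes for Col3a1, Col4a1, Col4a2, Col22a1, Col9a1 and Col24a1 by number of fibers per library and in whole muscle (horizontal axis); points are libraries and lines are group means. Col3a1 sits at 1389 to 1442 CPM in whole muscle against at most 157 CPM in fibers, while Col22a1 sits at 7.55 to 9.59 CPM in whole muscle against 11.6 to 34.8 CPM in fibers.

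The fibril-associated chains went both ways. Col14a1, which binds to the surface of mature fibrils, fell from 19.0 ± 4.04 CPM (SD, n = 3) in whole muscle to 2.08 ± 1.79 CPM (SD, n = 9) in fibers, by 3.15 on the log2 scale (SE 0.74, adjusted p = 0.00908, edgeR). Col12a1, its near relative in fascia and tendon, fell from 12.2 ± 1.65 to 4.35 ± 3.40 CPM (-1.74, SE 0.52, adjusted p = 0.0324, edgeR). Col16a1 fell from 8.03 ± 1.02 to 2.32 ± 1.91 CPM (-2.00, SE 0.65, adjusted p = 0.0453, edgeR).

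Col22a1 (ENSMUSG00000079022, chromosome 15, 71795795 to 72034227, minus strand) encodes the chain of type XXII collagen, known from the myotendinous junction where the fiber ends meet the tendon. It was at 34.8, 11.9 and 14.0 CPM in single fibers, 24.9, 11.8 and 16.7 CPM in pools of 5, 26.8, 11.6 and 25.2 CPM in pools of 20, and 8.43, 7.55 and 9.59 CPM in whole muscle. Every fiber library was above every whole muscle library. The rise was 2.55-fold (log2 fold change 1.35, SE 0.43, adjusted p = 0.0434, edgeR), and it was called under 7 of 20 alternatives, with adjusted p from 8.75e-04 to 0.228. Per kilobase of transcript Col22a1 had rank 3 among the 44 genes in single fibers, at 2.30 CPM per kilobase, and rank 19 in whole muscle, at 0.968. Its reads per kilobase of exon exceeded the background density in each group, at 80.8 in single fibers against a 99th percentile of 2.99.

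Col9a1 (ENSMUSG00000026147, chromosome 1, 24177610 to 24252684, plus strand), a chain of the cartilage collagen type IX, rose by 2.66 (SE 0.71, adjusted p = 0.0195, edgeR). It was at 4.68, 1.06 and 3.78 CPM in single fibers, 3.80, 2.94 and 1.83 CPM in pools of 5, 6.31, 4.40 and 2.79 CPM in pools of 20, and 0.321, 1.03 and 0.449 CPM in whole muscle. All fiber libraries lay above whole muscle, although single fiber 2 by very little, and the gene exceeded the background density in all 4 groups. Its partners Col9a2 (0.85) and Col9a3 (1.85) were not called, with adjusted p of 0.751 and 0.354, and both lay within the background density in single fibers. Nor were Col19a1 (0.65, adjusted p = 0.613) and Col20a1 (0.90, adjusted p = 0.448).

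Among the short-chain network genes, Col8a1, a chain of vessel walls, fell from 11.3 ± 1.77 CPM (SD, n = 3) in whole muscle to 2.75 ± 2.52 CPM (SD, n = 9) in fibers (-2.19, SE 0.59, adjusted p = 0.0213, edgeR). Its partner Col8a2 had no read in any single fiber against 124 reads in whole muscle, at least 24.3-fold lower with the group counted at 3 reads, and was not called over all fiber groups (adjusted p = 0.0722). Col10a1, of growth plate cartilage, had 2 reads in whole muscle and 92 in fibers, 25.0-fold more (6.72 to 209), and was not called (adjusted p = 0.0848). Of its 92 fiber reads, 67 came from the pools of 20. It lay within the background density there and in single fibers. The transmembrane chains Col13a1, known from the neuromuscular junction, Col17a1, Col23a1 and Col25a1, known from motor innervation, had log2 fold changes of 0.10, 0.93, 1.28 and 3.41 with adjusted p of 1, 0.665, 0.323 and 0.0631. Col7a1, the anchoring fibril chain of skin, averaged 11.2 ± 7.95 CPM (SD, n = 9) in fibers and 4.94 ± 1.36 CPM (SD, n = 3) in whole muscle (1.13, adjusted p = 0.132). Col26a1 (0.19) and Col28a1 (0.53) completed the list, with adjusted p of 0.973 and 0.855.

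**Figure D4:**
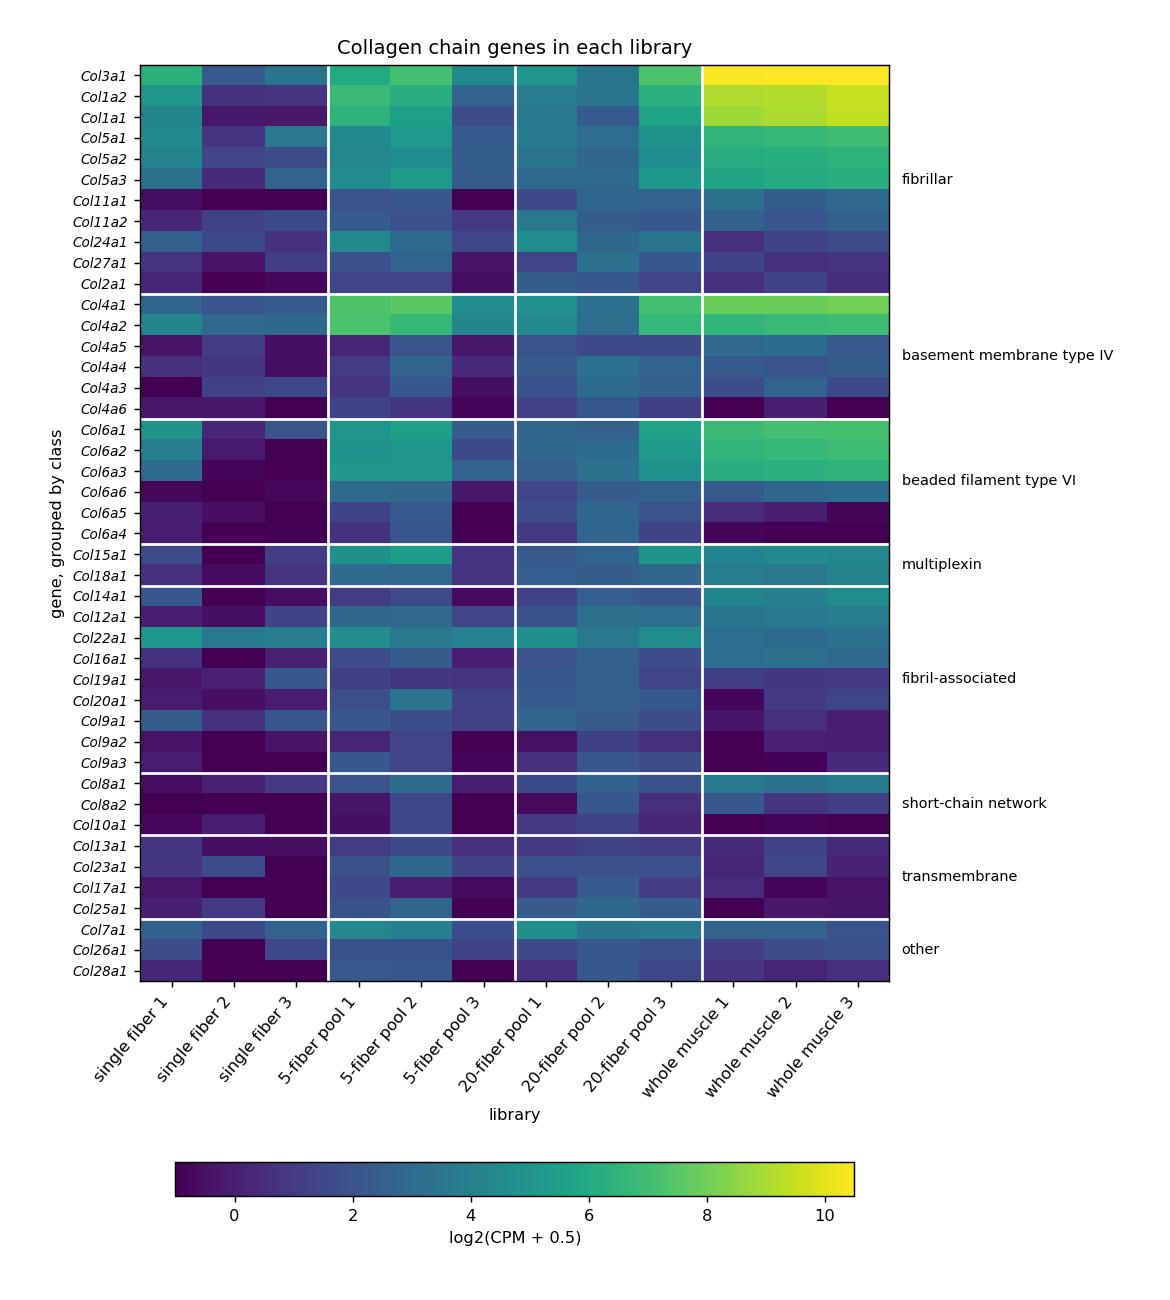
Log2(CPM + 0.5) of the 44 collagen chain genes (vertical axis, by class) in the 12 libraries (horizontal axis); brighter colours are higher levels. The type I and III chains are brightest in whole muscle, at 462 to 1442 CPM, and single fiber 1, 5-fiber pools 1 and 2 and 20-fiber pool 3 are brighter than the other fiber libraries for the type I chains.

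The makeup of the collagen RNA differed as well. Fibrillar chains took 78.3% ± 0.41 (SD, n = 3) of the collagen reads in whole muscle and 39.2% ± 8.76 (SD, n = 9) in fibers. Fibril-associated chains took 15.1% ± 8.50 in fibers against 1.41% ± 0.04, and Col22a1 is the most abundant of them there. Transmembrane chains took 2.75% ± 2.63 against 0.083% ± 0.043, and the 3 other chains 4.76% ± 2.70 against 0.231% ± 0.040. For these 4 classes the exact permutation p was 0.00909 and the value adjusted over the 8 classes 0.0182. The transmembrane chains Col17a1, Col23a1 and Col25a1 lay within the background density of the pools of 20. With the mean receptor density subtracted, the mean transmembrane share there was 2.01% in place of 3.52%. It was 1.47% in place of 1.64% in pools of 5, and 3.02% in place of 3.09% in single fibers. The share of the other chains in pools of 20 was 6.09% in place of 5.99%. Type IV took 23.6% ± 9.41 against 9.94% ± 0.18 and did not pass (exact permutation p = 0.0364, adjusted 0.0582), nor did type VI (10.3% against 8.74%, adjusted 0.582), multiplexins (2.92% against 0.937%, adjusted 0.0848) and short-chain genes (1.28% against 0.374%, adjusted 0.218). A share rises when another class falls, so that these are proportions and not levels. The comparisons are also unequal in depth, with 809 to 18706 collagen reads per fiber library against 42049 to 108187 per whole muscle library.

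**Figure D5:**
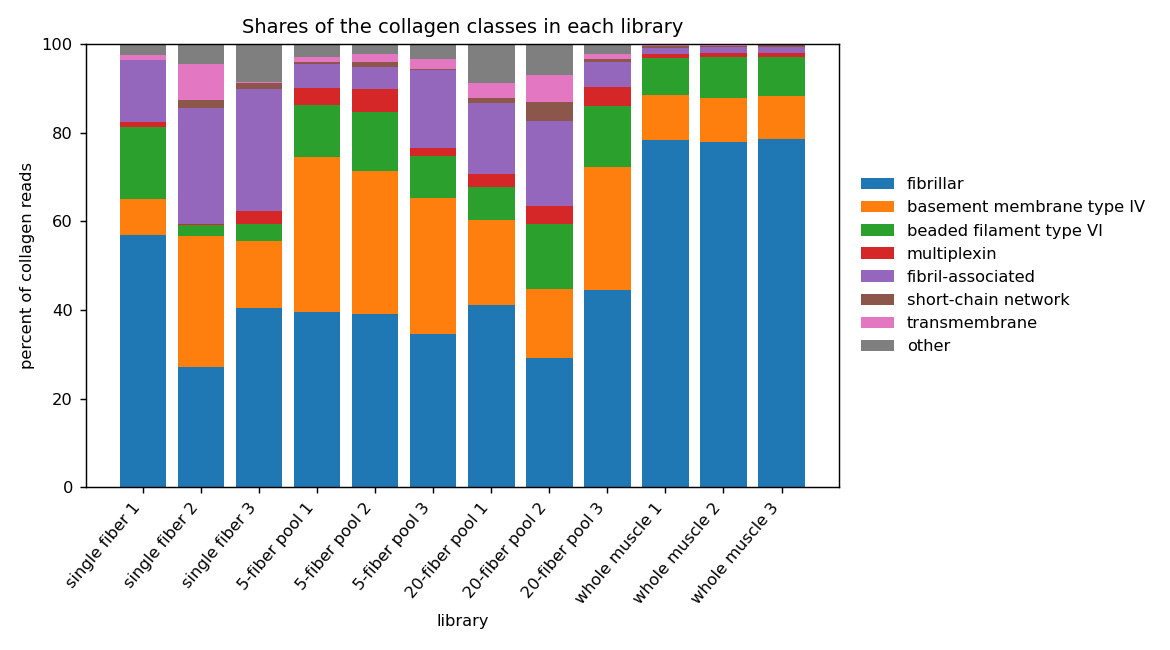
Percent of collagen reads (vertical axis, 0 to 100) taken by each of the 8 classes in each library (horizontal axis). Fibrillar chains take 77.8% to 78.6% in whole muscle and 27.1% to 56.9% in the fiber libraries.

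Taken 1 group at a time, the fall was widest in single fibers. These comparisons share the whole muscle libraries, so their values are given side by side. In single fibers against whole muscle, 35 collagen genes were tested by edgeR, and 22 fell and 1, Col9a1, rose (19.8% and 13.9% of all genes). Their median log2 fold change was -3.34, and that of all genes -0.12. Col4a1 fell by 5.60 (SE 0.33, adjusted p = 2.25e-04), Col4a2 by 3.27 (SE 0.45, adjusted p = 0.00253), Col15a1 by 3.72 (SE 1.00, adjusted p = 0.0247) and Col3a1 by 5.44 (SE 1.08, adjusted p = 0.00888). Of the 22, 5 lay within the background density in single fibers (Col6a6, Col11a1, Col12a1, Col16a1 and Col8a2).

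In pools of 5 against whole muscle 2 of 40 tested genes fell and none rose, beside 4.22% and 4.63% of all genes, or 3.51% and 6.14% with RLE factors. The 2 were Col3a1 (-4.15, SE 0.75, adjusted p = 0.0221, edgeR) and Col14a1 (-3.71, SE 0.85, adjusted p = 0.0391, edgeR). At an unadjusted p under 0.05 there were 13, beside 3952 of all 14764 genes. DESeq2 called 6 lower and 3 higher, beside 8.15% and 12.8% of all genes. The spread within this group was wide, since 5-fiber pool 3 held 139.6 CPM of collagen in all and the other 2 held 899 and 946 CPM. Without 5-fiber pool 3 the counts were 12 lower and 14 higher, beside 23.1% and 25.2% of all genes. Without the other 2 pools they were 27 lower and 1 higher, beside 27.0% and 19.4% of all genes, but that fit holds 1 pool against 3 whole muscle libraries, takes its spread from whole muscle and assumes that the lone pool varies likewise.

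In pools of 20 against whole muscle 10 of 43 tested genes fell and 19 rose, beside 13.5% and 30.3% of all genes, and the median log2 fold change was 1.08 over the collagen genes and 0.38 over all genes. Those that fell were Col1a1, Col1a2, Col3a1, Col5a1, Col5a2, Col5a3, Col6a1, Col6a2, Col6a3 and Col14a1, by 1.48 (Col5a3) to 4.25 (Col1a1) on the log2 scale. Of the 19 that rose, 12 lay within the background density of these pools, where nearly all receptor genes had reads. The 7 above it were Col24a1 (3.39, SE 0.44, adjusted p = 7.1e-05), Col7a1 (2.34, SE 0.37, adjusted p = 2.41e-04), Col22a1 (1.88, SE 0.33, adjusted p = 3.63e-04), Col9a1 (3.58, SE 0.68, adjusted p = 5.62e-04), Col20a1 (2.63, SE 0.74, adjusted p = 0.00878), Col9a3 (3.95, SE 1.12, adjusted p = 0.00932) and Col4a4 (1.51, SE 0.49, adjusted p = 0.02), all by edgeR. Without 20-fiber pool 2 the counts were 15 lower and 13 higher, beside 23.0% and 34.8% of all genes, and 7 of the 19 rises were lost (Col4a3, Col4a4, Col17a1, Col19a1, Col23a1, Col27a1 and Col28a1). With all 12 libraries in 1 fit they were 5 lower and 9 higher, beside 7.61% and 25.9% of all genes. Of the 7 above the background density, Col4a4 overlapped whole muscle. The part of the background reads in these rises was not tested.

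Between the fiber groups, single fibers against pools of 20 gave 26 of 42 tested collagen genes lower and none higher by edgeR, beside 27.5% and 8.52% of all genes, with medians of -3.03 and -0.74. In pools of 20 themselves, 23 of the 44 collagen genes lay within the background density, Col4a3 and Col8a1 among them. Of the 26, 15 lay within the background density in single fibers. The 11 others were Col4a1 (-3.90, SE 0.69, adjusted p = 0.00533), Col4a2 (-2.35, SE 0.66, adjusted p = 0.0143), Col4a3 (-2.90), Col4a4 (-3.94), Col15a1 (-3.73), Col18a1 (-3.48), Col24a1 (-2.85), Col7a1 (-2.49), Col11a2 (-2.56), Col5a3 (-2.15) and Col8a1 (-3.27). This count moved with 1 library, 20-fiber pool 2, which had the outlying TMM factor. Without that pool 7 collagen genes were called lower, beside 16.8% of all genes. They were Col4a1, Col4a2, Col6a6, Col7a1, Col11a1, Col20a1 and Col24a1. Single fibers against pools of 5 gave none of 31 tested genes in either direction, beside 0.0157% lower and 0% higher of all genes. There were 6 at an unadjusted p under 0.05, beside 1132 of all 12700 genes. DESeq2 called Col4a1, Col4a2, Col15a1 and Col20a1 lower, beside 3.11% of all genes. Pools of 5 against pools of 20 gave none of 44 tested genes, beside 0% of all genes in both directions. There, 1 had an unadjusted p under 0.05, beside 1502 of all 17113 genes, and none was called by DESeq2.

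Genes that make, modify and break down collagen were read from a list of 54, of which 53 were tested in isolated fibers against whole muscle, with 24 lower and 1 higher by edgeR and a median log2 fold change of -1.45, beside the 7.78% lower and 7.46% higher of all genes. Serpinh1 (HSP47), the chaperone that collagen chains require, was at 5.71, 4.91 and 2.61 CPM in single fibers, 45.3, 64.7 and 10.2 CPM in pools of 5, 13.2, 2.67 and 36.1 CPM in pools of 20, and 186, 204 and 228 CPM in whole muscle (-3.70, SE 0.52, adjusted p = 1.84e-04). P4hb, the shared subunit of prolyl 4-hydroxylase and a general disulfide isomerase, averaged 144 ± 69.0 CPM (SD, n = 9) in fibers and 171 ± 24.8 CPM (SD, n = 3) in whole muscle and was not called (-0.19, adjusted p = 0.898). P4ha1, a catalytic subunit of that enzyme, was not called either (0.22, adjusted p = 0.807), nor were Sec23a (-0.80, adjusted p = 0.208) and Mia3 (0.58, adjusted p = 0.392), which serve the export of procollagen from the endoplasmic reticulum. In all, 5 of 8 folding and export genes and 4 of 13 genes of hydroxylation and glycosylation fell, among the latter P3h3, a prolyl 3-hydroxylase (-4.08, SE 0.86, adjusted p = 0.0055).

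Further along the pathway, 4 of 8 genes of propeptide processing and 4 of 5 lysyl oxidases, which crosslink fibrils, fell. Pcolce, the enhancer of procollagen C-proteinase, went from 69.3 ± 14.1 CPM (SD, n = 3) in whole muscle to 8.72 ± 10.5 CPM (SD, n = 9) in fibers (-3.59, SE 0.71, adjusted p = 0.0028, edgeR). Of the degradation genes and their inhibitors 6 of 9 tested fell, with the largest fall of the list in Ctsk, the collagen-cleaving cathepsin K (-4.44, SE 0.50, adjusted p = 1.9e-05, edgeR). The gelatinase Mmp2 fell by 3.30 (SE 0.67, adjusted p = 0.00355, edgeR) and the inhibitor Timp2 by 1.93 (SE 0.39, adjusted p = 0.00312, edgeR), while Timp3 was not called (-0.88, adjusted p = 0.121). Of 10 receptors, Ddr1 fell and Gp6, the platelet receptor, rose on 0 reads in whole muscle. Itgb1, the shared subunit of collagen-binding integrins, was at 128 ± 109 CPM in fibers and 185 ± 29.9 CPM in whole muscle and was not called (-0.77, adjusted p = 0.313).

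Many markers of other cell types were lower too, though few of the satellite cell list. In isolated fibers against whole muscle, edgeR called lower 14 of 14 fibroblast markers (collagens left out), 11 of 12 endothelial, 7 of 8 tendon, 5 of 10 pericyte and smooth muscle, 6 of 8 Schwann cell, 6 of 8 macrophage, 6 of 6 adipocyte and 1 of 6 satellite cell markers, beside 7.78% of all genes. The fibroblast sum was 9.35 to 197 CPM in single fibers, 58.5 to 470 CPM in pools of 5, 61.0 to 501 CPM in pools of 20 and 2535 to 3046 CPM in whole muscle. Its highest value among single fibers was in single fiber 1, where Col1a1, Col1a2, Col3a1 and Col6a1 were also highest. The endothelial sum was 5.37 to 12.5 CPM in single fibers, 94.4 to 745 CPM in pools of 5, 52.4 to 606 CPM in pools of 20 and 1233 to 1434 CPM in whole muscle. Its 3 highest fiber libraries, 5-fiber pools 1 and 2 and 20-fiber pool 3 at 745, 544 and 606 CPM, were those in which Col4a1, Col4a2 and Col15a1 were highest. The fibroblast sum was highest among fibers in the same 3 libraries, at 384, 470 and 501 CPM. So were Col1a1, Col1a2, Col6a1, Col6a2 and Col6a3, and these libraries do not separate the 2 marker lists. The pericyte and smooth muscle list, which includes the muscle gene Des, summed to 122 to 3089 CPM in fibers and 1492 to 1991 CPM in whole muscle. Tendon markers summed to 5.57 to 45.1 CPM in fibers against 150.4 to 184 CPM, Schwann cell markers to 4.38 to 32.2 CPM against 244 to 346 CPM, adipocyte markers to 0 to 5.92 CPM against 930 to 1115 CPM, macrophage markers to 16.7 to 287 CPM against 448 to 542 CPM, and satellite cell markers to 10.5 to 53.8 CPM against 33.5 to 45.2 CPM. The fibroblast marker Mfap4, the tendon markers Tnmd, Chad and Kera, S100b, Lep and C1qa were at 0 in all 3 single fibers, and no endothelial marker was. The part of these cells in the collagen differences was not tested.

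Without the 5 libraries in which over 50% of receptor genes had a read, 20 collagen genes fell in fibers against whole muscle and none rose, beside 13.3% and 7.63% of all genes, and 16 of the 20 were among the 18 above. That fit holds 3 single fibers and 1 pool of 5. Col15a1, Col4a2, Col4a4 and Col8a2 joined them, and Col6a2 and Col6a3 no longer passed. Col22a1 then stood at a log2 fold change of 1.00 (edgeR adjusted p = 0.129), Col9a1 at 1.91 (adjusted p = 0.105) and Col24a1 at 0.32 (adjusted p = 0.757).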

How the data were processed

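The authors deposited whole-number read counts per Ensembl gene, not normalized, in 1 table of the 12 libraries. HISAT2, SAMtools and featureCounts are named on GRCm38 (mm10), per the submitters' processing notes; strand and multi-mapping settings and the annotation release are not given in the sources used here. Of 55573 gene identifiers, 55480 matched GENCODE vM21, which gave symbols, coordinates and exon lengths; 13 of the 44 collagen genes share exon bases with another gene, at most 6.07% (Col9a3). Groups and replicate numbers came from the labels.

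Tests were edgeR 4.0.16 (R 4.3.3) with TMM factors, filterByExpr, glmQLFit and glmQLFTest, on all 12 libraries (isolated fibers) or the 6 of a pair, with Benjamini-Hochberg adjustment over all genes tested and a threshold of 0.05. SE is the absolute log2 fold change divided by the square root of F. Fold changes use edgeR's prior count of 0.125, and folds from at most 3 reads are ratios of pooled reads. For sums, shares and ratios (offset 0.5 reads) the test was an exact two-sided permutation test of SciPy 1.17.1. The fits were tested on simulated counts with a dispersion of 0.05, which does not show how they behave at a wider spread. Alternatives were DESeq2 1.42.0, other scaling factors, no filter, a replicate block, a 2-group model and libraries left out. Libraries of a group were checked and none were near copies.

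The genes named have a group mean of 10 CPM or more or a call in isolated fibers or between fiber groups, with every library given from 50 CPM; of the pathway list, those at 50 CPM or more and the 2 largest calls in each direction. The collagen genes, lists and rules were chosen with earlier results of these data known. Proteins were not analysed here.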

Additional observations from a re-analysis of the deposited data

Results flagged for a closer look

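One result was picked out because the same contrast with whole muscle differed between 2 fiber groups by a test of the difference itself: in single fibers against pools of 20, 26 of the 42 tested collagen genes were called lower by edgeR and none higher, beside 27.5% and 8.52% of all genes. The receptor-gene background was 4.83% to 26.6% of genes with a read in single fibers and 78.6% to 97.3% in pools of 20, and the endothelial marker sum was 5.37 to 12.5 CPM against 52.4 to 606 CPM. The part of either in the difference was not tested. Without 20-fiber pool 2 the count was 7, beside 16.8% of all genes. With the replicate block it was 0, beside 0.0412% of all genes.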

How the results depend on the processing

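In isolated fibers, Col1a1, Col1a2, Col3a1, Col5a1 and Col5a2 were called lower under every alternative that gave them an adjusted p. Percentages in parentheses are the shares of all genes called in the same direction. The 18 lower calls became 12 with RLE (5.96%) or upper-quartile factors (5.14%), and 5 with 2 groups (1.72%). They became 11 with DESeq2 (8.2%), which gave 2 of them no adjusted p, and 13 to 20 with 1 library left out (3.35% to 11.4%). The 4 higher became 0 with 2 groups (0.977%), 0 without the receptor-rich libraries (7.63%) and 2 with the replicate block (5.92%). They became 11 without single fiber 2 and 5-fiber pool 3 (19.6%), and 0 to 7 with 1 library left out (1.16% to 16.3%). Single fibers against whole muscle gave 9 to 25 lower (7.68% to 28.3%) and 0 to 2 higher (2.65% to 21.7%) with 1 library left out. Without any 1 whole muscle library there were 9 lower. There were 2 higher with DESeq2 (17.8%), 2 without a filter (6.97%) and 0 with the replicate block (7.33%). Pools of 5 gave, for lower calls, 1 with upper-quartile factors, 6 with DESeq2, 14 without a filter, 1 with the replicate block, 1 with all 12 libraries, 27 without the receptor-rich libraries (an alternative chosen after seeing the data, with 1 pool against 3 whole muscle libraries, assumed to vary as they do) and 0 to 12 with 1 left out; for higher calls, 3 with DESeq2, 3 without a filter, 1 without the receptor-rich libraries and 0 to 14 with 1 left out. Pools of 20 gave 5 lower and 9 higher with all 12 libraries, beside 7.61% and 25.9% of all genes. For pools of 5 the shares of all genes called lower were 3.7% with upper-quartile factors, 8.15% with DESeq2 and 2.87% without a filter. They were 0.698% with the replicate block, 1.08% with all 12 libraries and 0.0306% to 23.1% with 1 left out. Called higher were 12.8% with DESeq2, 3.24% without a filter and 0.0122% to 25.2% with 1 left out. Single fibers against pools of 5 gave 4 lower with DESeq2 (3.11%), 10 without a filter (1.66%) and 7 with all 12 libraries (3.31%). With 1 left out they gave 0 to 4 lower (0% to 3.99%). Single fibers against pools of 20 gave 0 lower with the replicate block (0.0412%) and 7 to 32 with 1 left out (16.8% to 40.0%).

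Without the receptor-rich libraries (4 fiber libraries left, where the exact permutation test has fewer arrangements), the difference in summed level was -3512 CPM (p = 0.0571), the share differences were 19.8 (fibril-associated), -38.5 (fibrillar), 4.63 (other) and 2.77 (transmembrane) points (adjusted p = 0.114 each), that of type VI turned to -0.735, and Col7a1 turned to -0.56. Leaving out 1 whole muscle library raised the adjusted exact permutation p of those 4 shares to 0.0727. There too the test has fewer arrangements, so that its smallest possible p is higher. The fiber and whole muscle libraries did not overlap in any of the 4 shares. With 1 library left out at a time the share differences ran from 12.3 to 15.6 points for type IV (which passed without single fiber 1), 12.2 to 15.0 for fibril-associated, -41.3 to -37.6 for fibrillar, 1.68 to 2.32 for multiplexin (which passed without single fiber 2), 4.01 to 4.86 for other and 2.00 to 2.98 for transmembrane chains. Multiplexins passed at 2.54 points without single fiber 2 and 5-fiber pool 3. The cause of these changes was not tested beyond the smaller number of libraries. Same-numbered libraries did not deviate together (r from -0.402 to 0.453), so the numbers were not taken to pair them.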
